A study of Mus musculus with 6 samples.

Results

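Lateral, paraxial and vascular mesoderm genes were followed in the J1 line of mouse embryonic stem cells, in wild-type cells and in cells that lack Mettl5. The 9 genes were Hand2, Tbx20, Foxf1, Foxc1, Foxc2, Meox1, Kdr, Pdgfrb and Des, which were found in the deposited table by their GENCODE M21 symbols among 24191 genes. All 9 passed the filter on low values (on average 1 scaled read or more per library). The study measured polyA RNA in 3 libraries from wild-type cells (WT) and 3 from Mettl5 -/- cells (KO). Both groups were J1 cells kept in serum and LIF, the cytokine that holds mouse embryonic stem cells undifferentiated, for 7 days before the experiment. METTL5 is an RNA methyltransferase that makes N6-methyladenosine in ribosomal RNA, and the series asked how its loss bears on pluripotency and developmental programmes. The labels do not say which part of Mettl5 was altered, whether the KO cells were 1 clone or whether replicates were separate cultures, so p-values measure the spread between these libraries, which may be technical.

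Mesoderm leaves the primitive streak and is divided by position. Lateral plate mesoderm gives the heart, the limb buds and the walls of gut and vessels, and paraxial mesoderm gives the somites and from them skeletal muscle and the axial skeleton. HAND2 and TBX20 are transcription factors of the heart and lateral plate, FOXF1 is a forkhead factor of the splanchnic lateral plate, FOXC1 and FOXC2 are forkhead factors of paraxial mesoderm and vessels, and MEOX1 is a homeobox factor of somites. KDR (VEGFR2) is the main receptor for VEGF-A on endothelium and its precursors, PDGFRB is the receptor for PDGF-B on pericytes and smooth muscle, and DES is desmin, the intermediate filament protein of muscle.

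The libraries separated by genotype. Estimated depth was 38560000 to 59650000 fragments, and log2 values correlated across genes at 0.988 to 0.992 (Pearson) for libraries of the same genotype and at 0.946 to 0.949 for libraries of different genotype. Mettl5 itself lay between 48.6 and 50.3 on the TPM scale in WT libraries and between 3.32 and 3.65 in KO libraries (log2 change -3.73; adjusted p 5.4e-11 by limma). The 10 embryonic stem cell markers examined were all above 1 on the TPM scale in both groups, with a summed level of 5515 to 5912 in WT and 5103 to 5551 in KO libraries. Of these markers, 6 were called lower and 3 higher in KO cells, with a median log2 fold change of -0.27. Among all genes tested, 28.9% were called lower and 33.6% higher. The TPM scale is the length-corrected column of the deposited table, whose sums differ between libraries, from 969838 to 1022473. Fold changes are KO against WT on log2(scaled reads + 1), with the standard error (SE) from limma, and a gene was called at a Benjamini-Hochberg adjusted p under 0.05 over all 24183 genes tested.

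Of the 9 genes, 6 were called higher in KO cells, 2 were called lower and Foxc2 was not called. Tbx20, Foxc1, Foxf1, Kdr, Hand2 and Pdgfrb rose, and Meox1 and Des fell. Calls were common in the whole table, where 33.6% of genes were higher, 28.9% were lower and 62.6% were called in either direction. The median log2 fold change of the 9 genes was 2.27, the value of Hand2, beside 0.00 over all genes tested. It was 0.95 on log2(TPM + 0.1), where all genes had a median of -0.05, and 1.53 with a pseudocount of 5. The groups did not overlap for 8 of the 9 genes, as for 67.8% of all genes tested. In bulk RNA, a change in the number of cells that make a transcript and a change in RNA per cell cannot be told apart.

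Levels were low for most of these genes. In WT cells Des was the most abundant at 12.7 ± 0.679 on the TPM scale (SD, n = 3), Meox1 and Pdgfrb were just above 1, and the other 6 genes were below 1. In KO cells 4 genes had a mean of at least 1, namely Des, Tbx20, Pdgfrb and Kdr. The order in WT cells was Des, Meox1, Pdgfrb, Kdr, Tbx20, Foxc2, Foxf1, Foxc1 and Hand2. Among adjacent genes, the library values of Kdr and Tbx20, of Foxc2 and Foxf1, and of Foxf1 and Foxc1 overlapped. The values of Foxc2 also overlapped those of Foxc1 and of Hand2. In KO cells the order was Des, Tbx20, Pdgfrb, Kdr, Foxc1, Foxf1, Meox1, Hand2 and Foxc2, with overlap between Foxc1 and Foxf1. Tbx20 therefore passed from the fifth to the second place and Meox1 from the second to the seventh.

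**Figure D1:**
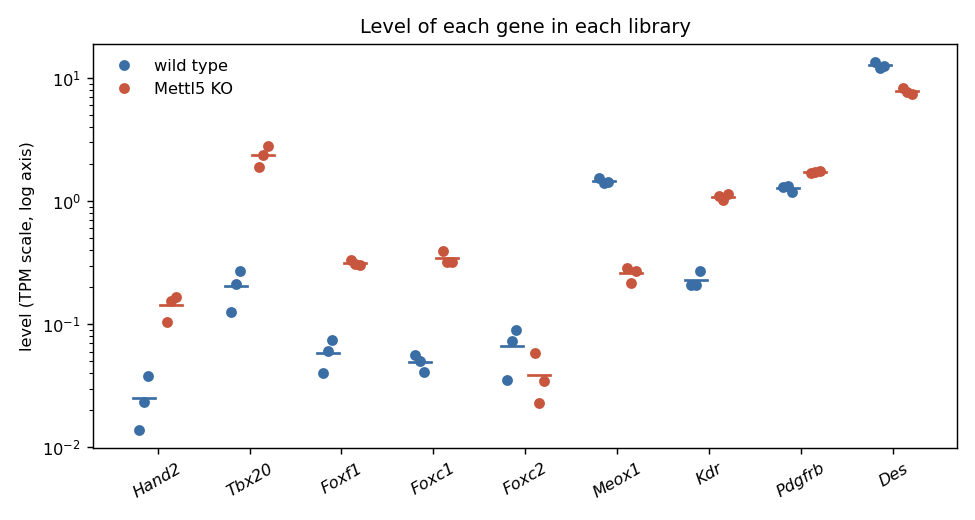
Level of each of the 9 genes on the TPM scale (log axis) in each of 3 WT and 3 KO libraries; points are libraries and horizontal bars are means. WT and KO points are apart for 8 genes and overlap for Foxc2.

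Promoter sequences show what stands in front of the genes that moved. RefSeq on GRCm38.p6 gave a promoter for 5 of the 9 genes (Hand2, Tbx20, Foxc1, Kdr and Des), and 3 are printed: Tbx20, which had the largest rise of the 9, Kdr, a receptor that rose, and Des, which fell. Each runs over the 250 bases before the annotated start site, 5′ to 3′ on the gene's strand, and capitals mark GC boxes (GGGCGG on either strand), the letters bound by SP-family factors. The Tbx20 stretch is chr9:24774304-24774553 on the minus strand, that of Kdr is chr5:75978456-75978705 on the minus strand and that of Des is chr1:75360042-75360291 on the plus strand. The RefSeq start site used lies 37 bases from the GENCODE gene start for Des, 3 for Kdr and 0 for Tbx20. The 50 bases after that site were held by 0 of 3 GENCODE transcripts of Des, 3 of 3 of Kdr and 1 of 5 of Tbx20.
Tbx20: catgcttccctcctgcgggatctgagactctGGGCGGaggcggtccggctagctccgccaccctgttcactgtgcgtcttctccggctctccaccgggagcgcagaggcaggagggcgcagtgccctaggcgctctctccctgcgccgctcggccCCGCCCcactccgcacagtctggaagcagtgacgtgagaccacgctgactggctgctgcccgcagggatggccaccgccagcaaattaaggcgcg
Kdr: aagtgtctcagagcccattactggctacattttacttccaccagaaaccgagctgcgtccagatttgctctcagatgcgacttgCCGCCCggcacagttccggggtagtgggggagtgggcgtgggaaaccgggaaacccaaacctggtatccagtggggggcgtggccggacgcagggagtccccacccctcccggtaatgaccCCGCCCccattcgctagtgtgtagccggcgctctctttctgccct
Des: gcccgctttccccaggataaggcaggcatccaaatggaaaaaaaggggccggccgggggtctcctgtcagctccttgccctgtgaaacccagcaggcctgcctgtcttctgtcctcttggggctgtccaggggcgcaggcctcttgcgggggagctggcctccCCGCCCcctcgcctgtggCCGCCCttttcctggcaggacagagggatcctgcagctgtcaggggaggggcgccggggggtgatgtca

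All 5 promoters held a GC box, which 32.7% of 32851 mouse promoters of this length hold. The CpG count was 29 in Foxc1, 22 in Tbx20, 16 in Kdr, 15 in Hand2 and 10 in Des, against a median of 6 over all promoters and quartiles of 2 and 16. An E-box (CANNTG, in 66.2% of promoters) stood in Hand2, Kdr and Des and not in Tbx20 or Foxc1. None of the 5 held the TATA box TATAAA (in 12.4% of promoters), the forkhead core TGTTTAC (3.17%), the T-box core GGTGTGA (3.33%) or the SRF CArG box (1.47%), each searched on both strands. The GATA site AGATAA (in 9.99% of promoters), searched in the same way, stood in Hand2 alone. GC boxes thus stood before a gene that fell as well as before the 4 that rose, and the GC content ran from 49.2% in Hand2 to 70.8% in Foxc1, against a median of 52.4% over all promoters.

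The heart and lateral plate factors Tbx20, Hand2 and Foxf1 all rose. Tbx20 (ENSMUSG00000031965, minus strand of mm10 chromosome 9, 24718138 to 24774303) had WT levels of 0.127, 0.213 and 0.273 and KO levels of 1.88, 2.37 and 2.82 on the TPM scale, which holds for all levels given here. Every KO value lay well above every WT value, with a wide spread in both groups. KO exceeded WT by 3.56 on the log2 scale (SE 0.265; adjusted p 2.32e-06 by limma), an 11.5-fold ratio of mean levels, and was above that of 99.0% of genes tested. Its coding neighbour Dpy19l2, at 21845 bases, was at 0.0395 ± 0.0064 in WT and 0.0169 ± 0.00698 in KO cells (SD, n = 3), and was called lower (log2 change -1.02; adjusted p 0.0415 by limma). That call was lost with the TPM column and with a replicate block (limma adjusted p 0.057 and 0.0648). It was also lost without any 1 of the WT libraries or KO replicate 3 (limma adjusted p 0.0587 to 0.128).

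Hand2 (ENSMUSG00000038193, chromosome 8, 57320983 to 57324633) was near the floor in WT cells, at 0.0139, 0.0232 and 0.0383, and at 0.104, 0.154 and 0.168 in KO cells. The groups did not overlap, yet the WT values stood for about 2, 3 and 4 reads. They were whole multiples of each library's step, the amount that 1 read adds. The change was 2.27 on the log2 scale (SE 0.372; adjusted p 0.000508 by limma). The noncoding gene Hand2os1 lies on the opposite strand and covers 3251 of the 3651 bases of Hand2, and it rose too, from 0.277 ± 0.0189 to 0.571 ± 0.159 (SD, n = 3; log2 change 1.02; adjusted p 0.0063 by limma). No source used here gives the strand setting of the counting, so reads of the pair may not be fully separated. The coding neighbour Fbxo8, at 22.4 ± 1.03 in WT and 21.9 ± 1.0 in KO cells (SD, n = 3), was not called (log2 change 0.02), but was called lower with equal library totals and higher under both treatments of chromosomes. In KO libraries none of the Hand2 values was a whole multiple of the step within 0.02.

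Foxf1 (ENSMUSG00000042812, chromosome 8, 121084386 to 121088144) was at 0.0404, 0.0601 and 0.0744 in WT and at 0.33, 0.31 and 0.301 in KO libraries. These values stood for 6, 8 and 8 reads in WT and 35, 48 and 46 in KO libraries. The KO libraries were close to each other and all above WT, with a change of 2.37 on the log2 scale (SE 0.26; adjusted p 3.39e-05 by limma).

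Of the 2 FOXC genes, Foxc1 rose and Foxc2 did not pass the threshold. Foxc1 (ENSMUSG00000050295, chromosome 13, 31806633 to 31812476) was at 0.0561, 0.0507 and 0.0407 in WT and at 0.391, 0.319 and 0.318 in KO libraries, with no overlap. KO exceeded WT by 2.78 on the log2 scale (SE 0.183; adjusted p 1.01e-06 by limma). Foxc2 (ENSMUSG00000046714, chromosome 8, 121116171 to 121118895) was at 0.0355, 0.0726 and 0.09 in WT and at 0.0581, 0.0227 and 0.0345 in KO libraries. The groups overlapped, and the values stood for 6, 11 and 11 reads in WT and 7, 4 and 6 in KO libraries. The change was -0.64 on the log2 scale (SE 0.433; 95% interval -1.62 to 0.34; adjusted p 0.231 by limma), an interval that holds a fall as well as a slight rise, so no direction was detectable at this depth.

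The ratio of Foxc1 to Foxc2 was 1.58, 0.698 and 0.453 in WT and 6.72, 14.0 and 9.22 in KO libraries on the TPM scale. The 3 KO ratios were above the 3 WT ratios, and an exact two-sided permutation test gave p = 0.1, the smallest that 3 against 3 libraries allow (0.125 adjusted over the 5 gene pairs compared, all chosen after values were seen). Foxf1 and Foxc2 lie 28.0 kb apart in the same orientation. The ratio of Foxf1 to Foxc2 was 1.14, 0.827 and 0.827 in WT and 5.68, 13.6 and 8.71 in KO libraries, again without overlap (exact permutation p = 0.1). Mthfsd, the gene between them, encodes a folate enzyme-like protein, and was at 17.9 ± 1.63 in WT and 19.8 ± 0.0618 in KO cells (SD, n = 3), with a log2 change of 0.22 (adjusted p 0.0172 by limma). That call was lost with libraries scaled to equal totals (0.07), with the TPM column (0.15) and with no intensity trend, and the value was 0.60 under both treatments of chromosomes. Irf8, an interferon regulatory factor of blood cells and the next coding gene on the far side of Foxf1, fell, with a log2 fold change of -2.11. Next to Foxc1, at 175.2 kb, Foxf2, the paralog of Foxf1, rose from 0.0475 ± 0.00577 to 0.388 ± 0.0623 (SD, n = 3; log2 change 2.88), and Gmds, a GDP-fucose synthesis gene on its other side, rose by 0.64.

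Meox1, the somite homeobox gene, fell. Meox1 (ENSMUSG00000001493, chromosome 11, 101877510 to 101894374) was at 1.54, 1.42 and 1.42 in WT and at 0.288, 0.218 and 0.271 in KO libraries. WT values were about 1.4 or more and KO values below 0.3, a 5.63-fold ratio of mean levels. The change was -2.41 on the log2 scale (SE 0.142; adjusted p 4.56e-07 by limma), below that of nearly all genes tested: 1.22% were lower. Both coding neighbours fell as well. Etv4, an ETS factor of FGF signalling, fell from 94.4 ± 4.14 to 36.4 ± 1.65, and Sost, which encodes the WNT antagonist sclerostin, fell from 0.131 ± 0.0731 to 0.0114 ± 0.00377 (SD, n = 3). The paralog Meox2, named after its values were seen, was below 0.1 in both groups and was not called.

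Chromosome 11, which carries Meox1, and chromosome 8, which carries Hand2, Foxf1 and Foxc2, were lower in KO cells as a whole. The median log2 fold change was -0.41 over 1787 tested genes of chromosome 11 and -0.38 over 1218 of chromosome 8. On chromosome 11, 57.5% of genes were called lower. Meox1 lay 2.0 below the chromosome's median, Hand2 lay 2.65 above and Foxf1 2.74 above, while Foxc2 lay 0.26 below it. The plot of fold changes beside chromosome medians shows that the 3 genes that rose or fell on these chromosomes were far from the median of their chromosome. With the chromosome's median fold change taken off, Foxc2 was at -0.26 (limma adjusted p 0.62).

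**Figure D2:**
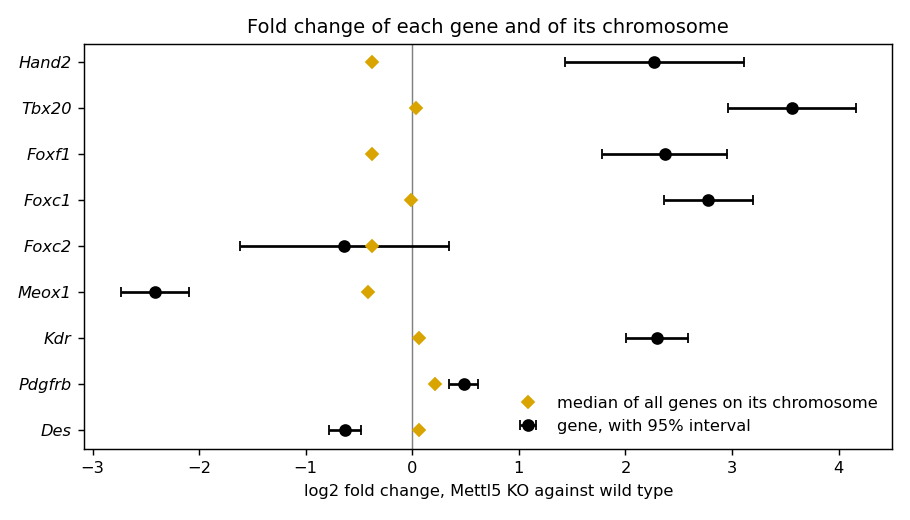
Log2 fold change of each of the 9 genes (black, with its 95% interval) and the median over all tested genes of its chromosome (yellow diamonds). The interval of Foxc2 crosses 0 and holds its chromosome's median of -0.38, and Pdgfrb, at 0.48, is the closest to its chromosome's median among the called genes.

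Kdr, the VEGF receptor, rose. Kdr (ENSMUSG00000062960, chromosome 5, 75932827 to 75978458) was at 0.206, 0.206 and 0.269 in WT and at 1.1, 1.02 and 1.14 in KO libraries. The KO values were close to each other and each was above 1, and the ratio of mean levels was 4.78-fold. KO exceeded WT by 2.29 on the log2 scale (SE 0.129; adjusted p 3.43e-07 by limma). Kdr stands beside 2 other receptor tyrosine kinase genes. Kit, the stem cell factor receptor at 276.1 kb, fell from 8.63 ± 0.473 to 5.82 ± 0.314, and Pdgfra, at 734.6 kb and named after its values were seen, fell from 1.56 ± 0.136 to 0.733 ± 0.0736 (SD, n = 3). The ratio of Kdr to Kit was 0.0255, 0.0229 and 0.0306 in WT and 0.18, 0.174 and 0.208 in KO libraries, without overlap (exact permutation p = 0.1). Srd5a3, a dolichol synthesis gene on the other side, was not called.

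The partners of Kdr went both ways. Among 7 VEGF ligand and co-receptor genes, 3 were called higher and 4 lower (median log2 fold change -0.22, beside 0.00 for all genes). Among all genes tested, 33.6% were called higher and 28.9% lower. Pgf, placental growth factor, rose from 0.912 ± 0.0495 to 8.24 ± 0.285, and the co-receptor genes Nrp1 and Nrp2 rose by 3.29 and 0.66 on the log2 scale. The 4 genes called lower, named after their values were seen, were Vegfa, Vegfb, Vegfc and Vegfd. Vegfa, the chief ligand of KDR, fell from 32.3 ± 1.22 to 18.1 ± 0.887 (SD, n = 3). Flt1, the receptor of PGF and VEGF-A, rose from 0.519 ± 0.0901 to 5.66 ± 0.14 (log2 change 3.49; adjusted p 1.54e-08 by limma).

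Endothelial and blood progenitor genes went both ways. Of 18 tested, a list that holds Flt1 and not Kdr, 5 were called higher, Flt1 among them, and 6 lower, with a median of -0.15. Of all genes tested, 33.6% were called higher and 28.9% lower. Runx1, a blood stem cell factor, rose from 0.631 ± 0.0595 to 4.27 ± 0.103, while Pecam1, an adhesion molecule of endothelium that mouse embryonic stem cells also carry, fell from 28.9 ± 1.19 to 9.53 ± 0.407 (SD, n = 3). Cdh5, the endothelial VE-cadherin gene named after its values were seen, was at 0.0966 ± 0.0297 in WT and 0.0686 ± 0.0325 in KO cells and was not called. The summed level of the list was 54.6 to 55.4 in WT and 43.2 to 44.4 in KO libraries.

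Pdgfrb, the pericyte receptor, had the smallest change of the called genes. Pdgfrb (ENSMUSG00000024620, chromosome 18, 61045150 to 61085061) was at 1.3, 1.32 and 1.19 in WT and at 1.69, 1.72 and 1.75 in KO libraries. The groups did not overlap, and KO levels were 1.35-fold WT levels. The change was 0.48 on the log2 scale (SE 0.059; adjusted p 7.3e-05 by limma). Chromosome 18 had the highest median of all chromosomes, 0.21 over 567 genes, and with this median taken off the fold change of Pdgfrb was 0.27 (adjusted p 0.00346 by limma). With log2 values centred on the median level of each chromosome in each library it was -0.13 and not called (limma adjusted p 0.0899), so its direction depended on the way chromosomes were treated. Both flanking genes rose by more. Cdx1, a caudal homeobox gene 8951 bases away, rose from 0.738 ± 0.182 to 4.04 ± 0.115, and Csf1r, the receptor of macrophage growth factor, rose from 0.0305 ± 0.013 to 0.154 ± 0.0274 (SD, n = 3).

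In the PDGF system the ligand genes rose and the alpha receptor gene fell. Of 6 genes tested beside Pdgfrb, 5 were called higher and 1, Pdgfra, lower, with a median log2 fold change of 1.76. Over all genes, 33.6% were called higher and 28.9% lower. The 5 higher genes were the ligand genes Pdgfa, Pdgfb, Pdgfc and Pdgfd and the receptor-like gene Pdgfrl. Pdgfd and Pdgfrl were named after their values were seen. Pdgfa rose from 15.3 ± 0.254 to 40.2 ± 0.41, Pdgfb, a ligand of PDGFRB, from 3.07 ± 0.116 to 11.1 ± 0.21, and Pdgfc from 2.53 ± 0.175 to 12.4 ± 0.207 (SD, n = 3). The ratio of Pdgfrb to Pdgfra was 0.868, 0.904 and 0.694 in WT and 2.08, 2.58 and 2.43 in KO libraries. The alpha receptor had the higher level of the pair in each WT library and the beta receptor in each KO library (exact permutation p = 0.1). The plot of the VEGF and PDGF systems sets these changes side by side.

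**Figure D3:**
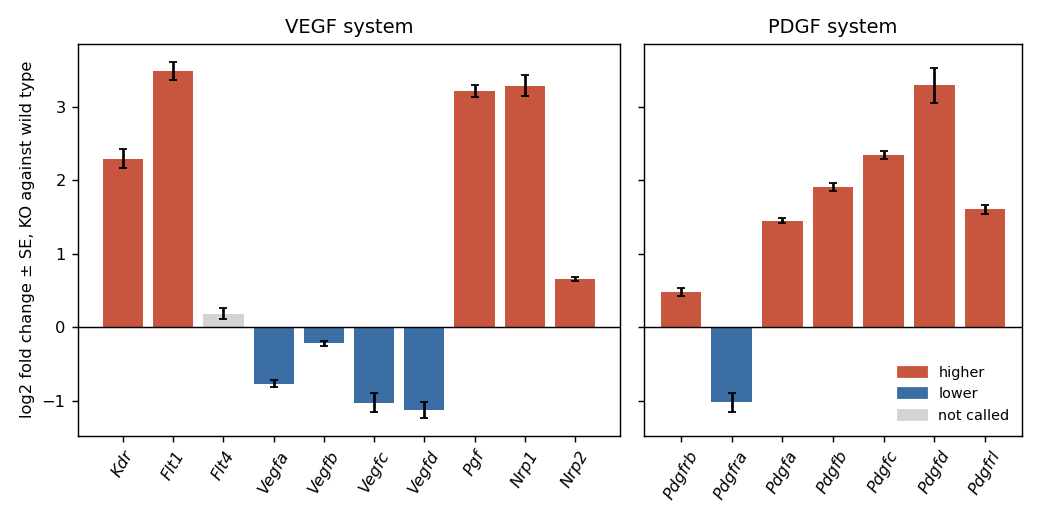
Log2 fold change, KO against WT, of genes of the VEGF system (left) and the PDGF system (right); bars are limma estimates, error bars are SE and colours give the call. Kdr and Flt1 are at 2.29 and 3.49 while Vegfa to Vegfd are below 0, and Pdgfra at -1.02 is the one bar below 0 on the right.

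Des, the desmin gene, fell. Des (ENSMUSG00000026208, chromosome 1, 75360329 to 75368579) was at 13.4, 12.1 and 12.6 in WT and at 8.3, 7.77 and 7.37 in KO libraries. Each KO value was below each WT value, and the change was -0.63 on the log2 scale (SE 0.0669; adjusted p 2.64e-05 by limma). Speg, a muscle kinase gene 6718 bases away, rose from 6.41 ± 0.709 to 20.3 ± 0.277 (SD, n = 3), and Dnpep, an aminopeptidase gene on the other side, had a log2 change of -0.10 (adjusted p 0.0181 by limma). That call was lost without WT replicate 1 or KO replicate 2 (limma adjusted p 0.0569 and 0.0715) and with no intensity trend (0.0775), and the value was -0.26 with equal totals, -0.17 with the TPM column or the chromosome's median fold change removed, and -0.40 with centred chromosomes.

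Other muscle genes went both ways. Of 18 striated muscle genes tested, 8 were called lower and 5 higher, with a median of -0.55. For this list and the smooth muscle list below, the shares over all genes tested were 33.6% higher and 28.9% lower. Myh3, embryonic myosin heavy chain, fell from 2.81 ± 0.0647 to 0.289 ± 0.0318, while the small heat shock gene Cryab, whose protein binds desmin, rose from 4.95 ± 0.281 to 83.2 ± 1.85 and the cardiac actin gene Actc1 from 0.112 ± 0.028 to 3.02 ± 0.0804 (SD, n = 3). Of 12 pericyte and smooth muscle genes tested, 7 were called higher and 3 lower, with a median of 0.78. Tagln, Acta2 and Cnn1, which encode proteins of the contractile apparatus of smooth muscle, had log2 fold changes of 5.52, 6.29 and 4.12. The smooth muscle myosin gene Myh11, named after its values were seen, was at 0.0884 ± 0.00732 in WT and 0.0966 ± 0.0207 in KO cells and was not called.

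Other lateral plate and cardiac genes went both ways. Of 19 lateral plate and cardiac genes tested, 9 were called higher and 2 lower (median 0.78), where 33.6% of all genes were higher and 28.9% lower. Prrx2, a homeobox gene of limb and facial mesenchyme, rose from 2.66 ± 0.174 to 18.6 ± 1.03, and Hand1, the paralog of Hand2, from 1.97 ± 0.305 to 6.63 ± 0.297, whereas the cardiac and endodermal factor gene Gata4 fell from 3.77 ± 0.265 to 1.62 ± 0.169 (SD, n = 3). The other lower gene was Gata6, named after its values were seen, with a log2 fold change of -1.86. The ratio of Hand2 to Hand1 was 0.00804, 0.01 and 0.0205 in WT and 0.0154, 0.0245 and 0.0245 in KO libraries, and these groups overlapped (exact permutation p = 0.2).

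Of 15 paraxial and somite genes tested, 5 were called higher and 5 lower (median -0.27), where 33.6% of all genes were higher and 28.9% lower. With libraries scaled to equal totals 8 were lower, a setting that moved the median of all genes from 0.00 to -0.15. Tcf15, a bHLH factor of somites and of stem cells leaving the naive state, fell from 64.0 ± 3.51 to 30.1 ± 1.4. Msgn1, a presomitic mesoderm factor, rose from 0.123 ± 0.0395 to 1.7 ± 0.224, and Lfng, a glycosyltransferase of the Notch pathway and the segmentation clock, rose from 5.79 ± 0.382 to 12.3 ± 0.62 (SD, n = 3). Meox1 and Tcf15 thus fell where Msgn1 rose. Hedgehog signalling is known to act before Foxf1 in the lateral plate. Of 13 hedgehog pathway genes tested, 9 were called higher and 1 lower (median 0.39), where 33.6% of all genes were higher and 28.9% lower. A link between these genes and the change of Foxf1 was not tested. Gli3, a hedgehog transcription factor, rose from 2.24 ± 0.0842 to 8.61 ± 0.123, Cdon, a co-receptor, by 1.25 on the log2 scale and Ptch1, the receptor and target gene, by 0.44.

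Most fibroblast markers rose in KO cells too. Of 15 feeder fibroblast markers tested, 13 were called higher and 2 lower (Thy1 and Mfap5, named after their values were seen), with a median of 2.88. Over all genes tested, 33.6% were called higher and 28.9% lower. Their summed level was 32.3 to 33.7 in WT and 52.6 to 53.9 in KO libraries on the TPM scale. Lum was listed at 0 in WT replicate 3, and no other marker with a value was at 0 in any WT library. Col1a1, a fibrillar collagen gene named after its values were seen, went from 0.694 ± 0.316 to 17.7 ± 0.444, while Lum and Postn, genes of matrix-forming fibroblasts named in the same way, reached 0.114 ± 0.0218 and 0.63 ± 0.0696 in KO cells (SD, n = 3). The part of such cells in the levels of Tbx20, Foxf1, Foxc1, Hand2, Kdr and Pdgfrb was not tested.

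**Figure D4:**
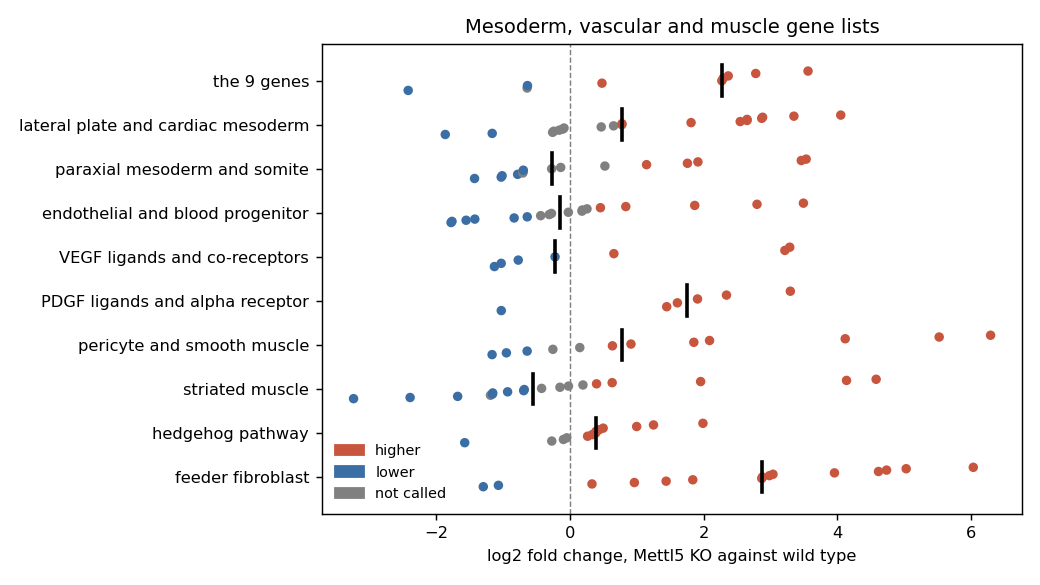
Log2 fold change, KO against WT, of the genes in each list; points are genes coloured by call, black bars are list medians and the dashed line is the median of all genes tested (0.00). The medians run from -0.55 for striated muscle to 2.88 for feeder fibroblast markers, with the 9 genes at 2.27.

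Among the other named genes that averaged 20 scaled reads or more (14495 or 14496 candidates), the one with the most similar pattern over the 6 libraries was found for each of the 9. Likeness was the root mean square difference between log2 values centred per gene, so a low value means similar steps between libraries. The closest were Kbtbd7 to Pdgfrb (0.0183), Pomt1 to Des (0.0203), Pcsk5 to Kdr (0.0749), Pcdhb22 to Foxf1 (0.0764), Rnf212b to Meox1 (0.0821) and Jph2 to Foxc1 (0.0885). Mecom was closest to Hand2 (0.169), Ifih1 to Tbx20 (0.21) and Lrp8os2 to Foxc2 (0.264), the 3 genes with the widest spread between WT libraries among the 9. That spread, as SD over mean, was 49.1% for Hand2, 42.1% for Foxc2 and 35.9% for Tbx20, against 4.92% to 29.3% for the other 6. WT replicate 3 held the highest WT value for 5 of the 9 genes (Hand2, Foxf1, Kdr, Tbx20 and Foxc2), and KO replicate 1 the highest KO value for 5.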

How the data were processed

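PolyA RNA of 6 libraries was analysed from 1 deposited table. The submitters' processing notes name kallisto and sleuth and, as the genome build, mm10. No source used here gives their versions, the transcript annotation or the strand setting. Both value columns deposited by the authors are signal values per gene: scaled reads, which are not whole numbers, and a TPM column that had been rescaled between libraries. Depth was estimated from the step of each library, whose whole multiples hold 29.9% to 32.5% of values between 0.5 and 40 within 0.02 of a multiple, and read numbers quoted for single-transcript genes are values divided by that step. Symbols and coordinates came from GENCODE M21 (GRCm38, also called mm10), which held 23846 of 24191 identifiers, and promoters from RefSeq.

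A count test was planned in case the table held counts. It did not, so log2(scaled reads + 1) was fitted in limma 3.58.1 under R 4.3.3, with the prior variance following the mean level. This fit was tested beforehand on simulated whole counts in which few genes changed. The deposited values are not whole and 62.6% of genes were called, so that test does not give the error rate here. Python 3.11.15, pandas 2.3.3, numpy 2.4.6 and matplotlib 3.10.9 handled tables and plots. The members and lists were chosen with earlier results of these data known. Named are the 9 genes, Mettl5, up to 3 genes of each of 8 lists with the smallest p among those at 1 or more on the TPM scale, the flanking coding genes, noncoding genes starting within 5 kb, and the most similar gene. Scrg1, Gm10181, Foxl1, Fendrr, Gm27530 and Gm29824 come under the same rule but had no value in the deposited table, so they could not be tested. Genes named outside this rule are marked in the text. Alternatives were other library scalings, pseudocounts of 0.5 and 5, no filter, a mean of at least 10, the TPM column, no intensity trend, a replicate block, 2 treatments of chromosomes, and leaving out each library.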

Additional observations from a re-analysis of the deposited data

How the results depend on the processing

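Of the 9 genes, Hand2, Tbx20, Foxf1, Foxc1, Meox1, Kdr and Des kept their direction and their call under all 17 alternatives, with a largest limma adjusted p of 0.00351 (Hand2). Pdgfrb lost its call and turned to -0.13 when log2 values were centred on the median level of each chromosome, which left 5 genes called higher. Removing the chromosome's median fold change, an alternative chosen after seeing the data, gave 0.27. Foxc2 was not called under any of the 16 alternatives it could be tested in (limma adjusted p 0.0819 to 0.644) and had no value with a mean of at least 10 scaled reads. Leaving out each library gave 6 genes higher and 2 lower throughout, with Hand2 between 2.01 and 2.55, Tbx20 between 3.27 and 3.79 and Foxc2 between -0.99 and -0.36. Fold changes of the low genes depend on the column and pseudocount: on log2(TPM + 0.1), Hand2 was at 0.95, Foxf1 at 1.39, Foxc1 at 1.57 and Foxc2 at -0.26. Scaling libraries to equal totals moved the median of all genes from 0.00 to -0.15 and the higher part of all called genes from 53.8% to 40.8%. Of the flanking genes, Fbxo8 beside Hand2, not called at 0.02, was called at -0.14 with equal totals (limma adjusted p 0.0317) and at 0.40 with centred chromosomes and with the chromosome's median fold change removed (limma adjusted p 0.000217 and 5.03e-05). It was not called at -0.00128 with median-ratio scaling or -0.0353 with the TPM column, and leaving out each library gave -0.0120 to 0.0559, below 0 without WT replicate 2 (-0.00451) and without KO replicate 3. Srd5a3 beside Kdr turned from 0.0754 to -0.0809 with equal totals and -0.13 with centred chromosomes. Replicate numbers gave no clear pairing of libraries: deviations of same-numbered libraries correlated at -0.0094, 0.0383 and 0.0443. WT replicates 2 and 3 correlated best with their own number and WT replicate 1 did not. Correlations this small, from 3 libraries per group, cannot decide whether the libraries were paired. With the replicate block, 6 genes were higher and 2 lower, Foxc2 had a limma adjusted p of 0.28, Dpy19l2 lost its call (limma adjusted p 0.0648), and 15110 genes were called in all, against 15135.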
